A study of Homo sapiens with 9 samples.

Results

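The 10 genes described here encode the eIF2 alpha kinases (EIF2AK1, EIF2AK2, EIF2AK3 and EIF2AK4), their substrate (EIF2S1), the regulatory subunits of the eIF2 alpha phosphatase (PPP1R15A and PPP1R15B), the kinase inhibitor IMPACT, and NUPR1 and EIF4EBP1, which act downstream of ATF4. Their rows were taken by gene symbol, and all 10 were found among the 22587 genes with an expression value. All 10 also passed the filter on low values, which left 11880 genes for testing.

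The libraries came from HepG2, an established line of hepatocyte-like human liver tumor cells, kept in high-glucose DMEM with serum. RNA-seq was performed on 3 groups of 3 libraries, namely cells with Gln added (the labels call the medium normal and list GlutaMAX as its supplement) and cells after 12 h or 24 h of Gln deprivation. The treatment protocol and the study's methods, in contrast, mention GlutaMAX for the Gln-free medium, so the exact Gln source of each group cannot be told apart here. Nothing states that the 3 libraries of a group came from separate cultures, and p-values then measure only the spread between these libraries, which may be technical. The comparison of Gln deprivation with Gln added asks how transcripts change when this amino acid is withdrawn, and the comparison of 24 h with 12 h asks how they change with time. Titles of the Gln-added samples give no time, so Gln deprivation and time in culture cannot be told apart.

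Phosphorylation of eIF2 alpha is the shared step of the integrated stress response. Each kinase senses another stress, the phosphorylated eIF2 blocks its exchange factor eIF2B, initiation slows, and a few mRNAs such as that of ATF4 are translated better. ATF4 then raises amino acid and stress genes, among them PPP1R15A, whose product brings protein phosphatase 1 to eIF2 alpha and closes the loop. In HepG2 and liver cells this pathway is known for its response to amino acid shortage, sensed by EIF2AK4. Only transcripts were measured, not phosphorylation or protein.

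Libraries held 29621270 to 36261546 fragments. Values are FPKM, fragments per kilobase of gene length scaled to the depth of each library, and fold changes are differences of log2(FPKM + 0.1) between group means. The hepatocyte markers fixed for HepG2 were detected in 9 of 9 libraries, with ALB at 3230 to 3908 FPKM and AFP at 216 to 317 FPKM, and they summed to 7381 to 7481 FPKM with Gln added, to 6473 to 6539 FPKM after 12 h and to 6258 to 6581 FPKM after 24 h. The summed endothelial markers reached at most 0.366 FPKM and the summed fibroblast markers 0.0352 FPKM, with CDH5 at 0 in 7 libraries and DCN at 0 in 8. Of the leukocyte markers LYZ was at 524 to 785 FPKM, and PTPRC and CD3E were not analysed here. Whether LYZ came from the HepG2 cells themselves was not tested, and LYZ alone gives no measure of leukocytes here. The part of the lower hepatocyte marker sum in the results was not tested.

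After 12 h, 8 of the 10 genes passed an adjusted p of 0.05 (limma), 4 higher and 4 lower than with Gln added, against a background of 60.2% of all genes tested (29.1% higher and 31.0% lower). In bulk RNA a lower level can come from fewer cells of a type or from less RNA per cell, which cannot be told apart. FPKM are scaled to depth, so a lower level is also relative to the other transcripts of its library. PPP1R15A, NUPR1, EIF4EBP1 and PPP1R15B rose, and EIF2AK1, EIF2AK2, EIF2AK4 and IMPACT fell. The same 8 genes passed in the same directions after 24 h, where 64.7% of all genes did (33.0% higher and 31.7% lower). The libraries did not overlap for 8 of the 10 genes after 12 h and for 9 after 24 h, beside 67.2% and 69.9% of all genes tested. Both comparisons use the same 3 Gln-added libraries. A share of 8 in 10 was thus not far above a background in which more than 60% of genes passed, and the size of the changes separated the genes more than the count did. The 4 genes that rose also changed by at least 0.5 on the log2 scale after 12 h, a size reached by 20.4% of all genes tested and upward by 9.65% of all genes tested, and no member fell that far against 10.8% of all genes. Without replicate 3 of 12 h, EIF2AK2 did fall past that size, with -0.53. After 24 h the same 4 rose and EIF2AK1 fell by that size, with 24.9% of all genes past it, 12.6% upward and 12.4% downward. With each library rescaled to the same total, EIF2AK1 was at -0.48 and 4 members passed that size. The median absolute log2 fold change of the 10 genes was 0.44 after 12 h and 0.45 after 24 h, beside 0.26 and 0.28 over all genes tested. The 10 genes were chosen with earlier results of these data known, so their larger median is no independent evidence.

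**Figure D1:**
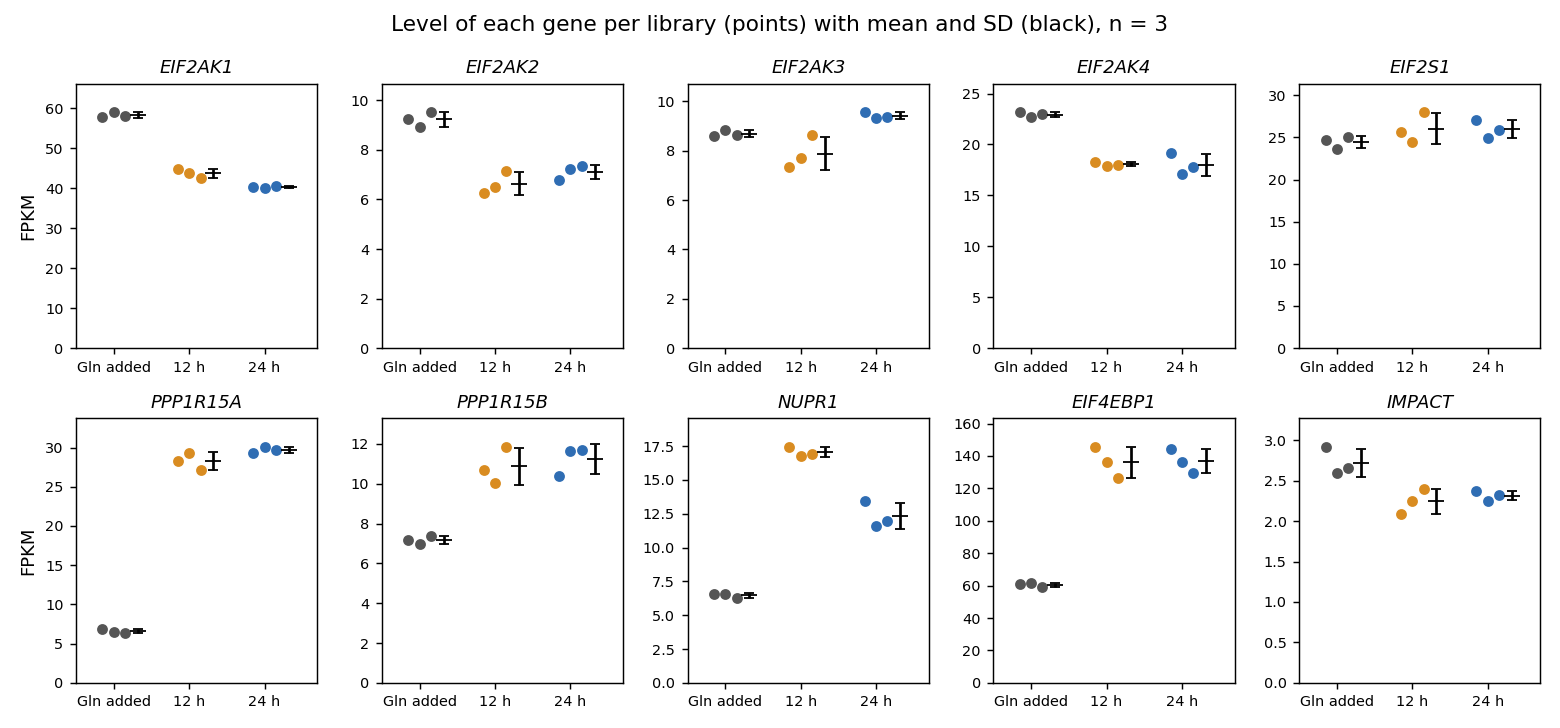
Level of each of the 10 genes in FPKM (vertical axes, each starting at 0) in the 3 libraries with Gln added (grey), after 12 h (orange) and after 24 h (blue) of Gln deprivation, with the mean and SD in black (n = 3). PPP1R15A sits between 6.35 and 6.90 FPKM with Gln added and between 27.1 and 30.1 FPKM in all 6 deprived libraries, while EIF2AK1 sits between 57.8 and 59.1 FPKM and then between 40.0 and 44.9 FPKM.

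**Figure D2:**
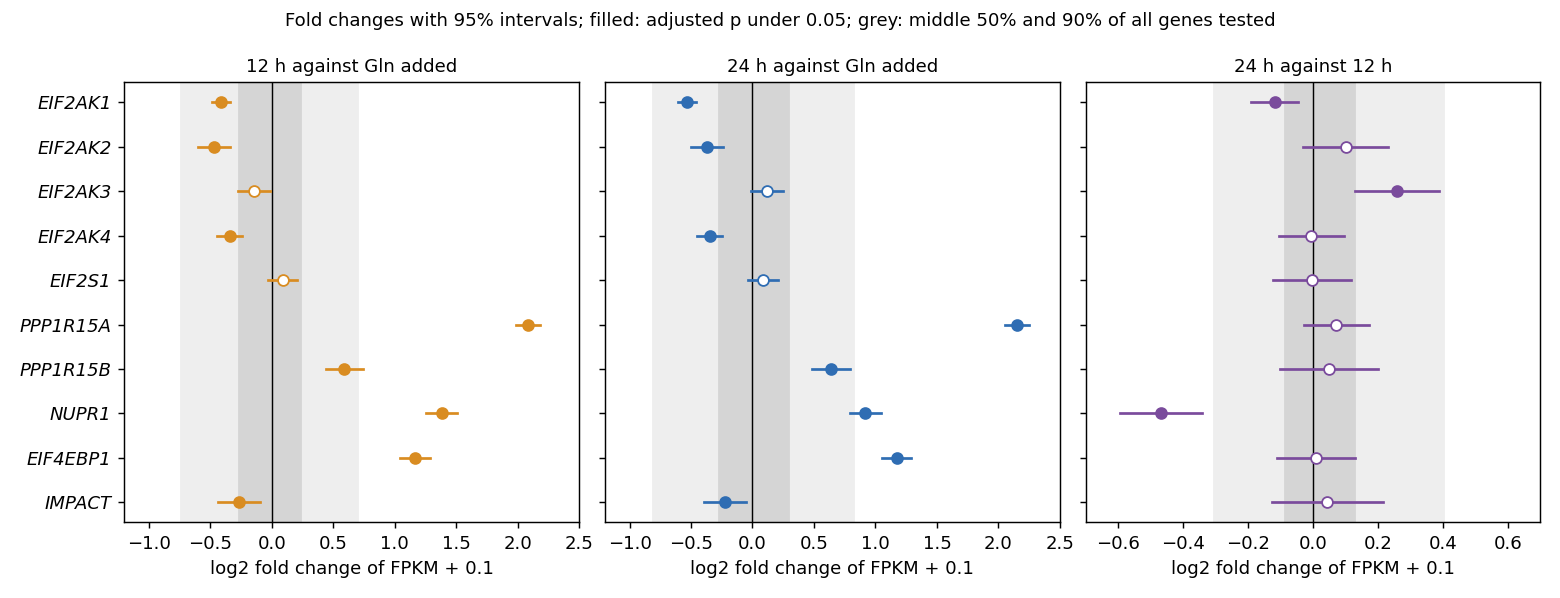
Log2 fold change of FPKM + 0.1 (horizontal axes) for the 10 genes in the 3 comparisons, with 95% intervals from limma as lines, filled points for an adjusted p under 0.05, and grey bands for all genes tested (darker, the middle 50%, and lighter, the 5th to the 95th percentile). PPP1R15A, NUPR1 and EIF4EBP1 lie to the right of both bands after 12 h and after 24 h, and only NUPR1 lies outside both bands in the comparison of 24 h with 12 h.

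Of the kinase transcripts EIF2AK1, EIF2AK2 and EIF2AK4 fell after Gln deprivation. By the same test 31.0% of all genes tested fell after 12 h and 31.7% after 24 h. Fold changes lower than those of EIF2AK1, EIF2AK2 and EIF2AK4 were found for 15.4%, 12.6% and 19.65% of all genes tested after 12 h. After 24 h these shares were 11.7%, 18.9% and 20.2%. EIF2AK3 did not pass the test against Gln added in the fit of all groups, and passed it upward after 24 h in 3 of 19 alternatives. EIF2AK1 (GRCh38 chr7:6022247-6059175, minus strand) encodes HRI, the heme-regulated kinase that also relays mitochondrial stress. Its level was 57.8, 59.1 and 58.1 FPKM in the Gln-added libraries, 44.9, 43.9 and 42.6 FPKM after 12 h and 40.4, 40.0 and 40.7 FPKM after 24 h. No library of any group overlapped with those of another. The log2 fold change was -0.41 after 12 h (SE 0.033, adjusted p = 1.76e-06 from limma) and -0.53 after 24 h (adjusted p = 1.77e-07), which made EIF2AK1 the member with the largest fall after 24 h. The further difference from 12 h to 24 h was -0.12 (adjusted p = 0.0282), and this call was lost in 7 of 19 alternatives, for example without replicate 1 of 12 h (-0.10, adjusted p = 0.109) or with only these groups in the fit (adjusted p = 0.0829). A named pseudogene, EIF2AK1P1, could share its reads and leaves its level uncertain. Exons of AIMP2 on the opposite strand cover 9.69% of its exonic bases, and whether strand was used in counting is not given in the sources used here.

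EIF2AK4 (GRCh38 chr15:39934115-40035591, plus strand) encodes GCN2, the kinase that senses uncharged tRNA and stalled ribosomes when amino acids are short. Its level was 23.2, 22.7 and 23.0 FPKM with Gln added, 18.3, 17.9 and 18.0 FPKM after 12 h and 19.2, 17.1 and 17.8 FPKM after 24 h. All 6 deprived libraries lay below the Gln-added ones, and those of 12 h and 24 h overlapped. Its log2 fold change was -0.34 after 12 h (SE 0.045, adjusted p = 7.46e-05) and -0.35 after 24 h (adjusted p = 5.24e-05), with a difference of -0.01 between the times (adjusted p = 0.951).

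EIF2AK2 (GRCh38 chr2:37099210-37157522, minus strand) encodes PKR, which is activated by double-stranded RNA. It was at 9.23, 8.93 and 9.53 FPKM with Gln added, at 6.26, 6.50 and 7.16 FPKM after 12 h and at 6.80, 7.22 and 7.33 FPKM after 24 h. The Gln-added libraries stood above all the others, and the 12 h and 24 h libraries overlapped. Its log2 fold change of -0.47 after 12 h (SE 0.059, adjusted p = 5.38e-05) was the largest fall among the 10 genes at that time, and it was -0.37 after 24 h (adjusted p = 0.000241).

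EIF2AK3 (GRCh38 chr2:88556741-88691518, minus strand) encodes PERK, the kinase of the endoplasmic reticulum that responds to unfolded proteins. It was at 8.60, 8.84 and 8.62 FPKM with Gln added, at 7.32, 7.69 and 8.63 FPKM after 12 h and at 9.57, 9.31 and 9.37 FPKM after 24 h. Replicate 3 of 12 h lay within the Gln-added range, whereas all 3 libraries of 24 h stood above every other library. Neither comparison with Gln added passed the test, with log2 fold changes of -0.14 after 12 h (adjusted p = 0.056) and 0.12 after 24 h (adjusted p = 0.107). Without replicate 3 of 12 h, the values were -0.21 (adjusted p = 0.00387) and 0.12 (adjusted p = 0.0348), and with each library rescaled to the same total the 24 h value was 0.16 (adjusted p = 0.0403). The 24 h value of 0.12 also passed when the 12 h libraries were left out of the model (adjusted p = 0.0413). From 12 h to 24 h, EIF2AK3 rose by 0.26 on the log2 scale (SE 0.058, adjusted p = 0.0116), and it passed in all 19 alternatives, with adjusted p of at most 0.0446.

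Added up, the kinase transcripts were at 99.2 ± 0.352 FPKM with Gln added, 76.4 ± 0.438 FPKM after 12 h and 74.9 ± 1.15 FPKM after 24 h (SD, n = 3). All deprived libraries lay below the Gln-added ones in this sum. EIF2AK1 made up 58.8% of the sum with Gln added, 57.4% after 12 h and 53.9% after 24 h. EIF2AK3 made up 8.76%, 10.3% and 12.6%, and its share did not overlap between any of the 3 groups. A share also depends on the other kinase genes. The mean level of EIF2AK3 itself was 8.69 FPKM with Gln added, 7.88 FPKM after 12 h and 9.42 FPKM after 24 h. The share of EIF2AK4 was 23.1%, 23.6% and 24.0%, and that of EIF2AK2 was 9.31%, 8.70% and 9.51%, overlapping in all comparisons. For the sum at both times against Gln added, for the shares of EIF2AK1 and EIF2AK3 in all 3 comparisons and for that of EIF2AK4 after 12 h, the two-sided exact permutation test gave p = 0.1, the smallest that 3 libraries against 3 allow (adjusted p = 0.167 over 15 such tests).

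**Figure D3:**
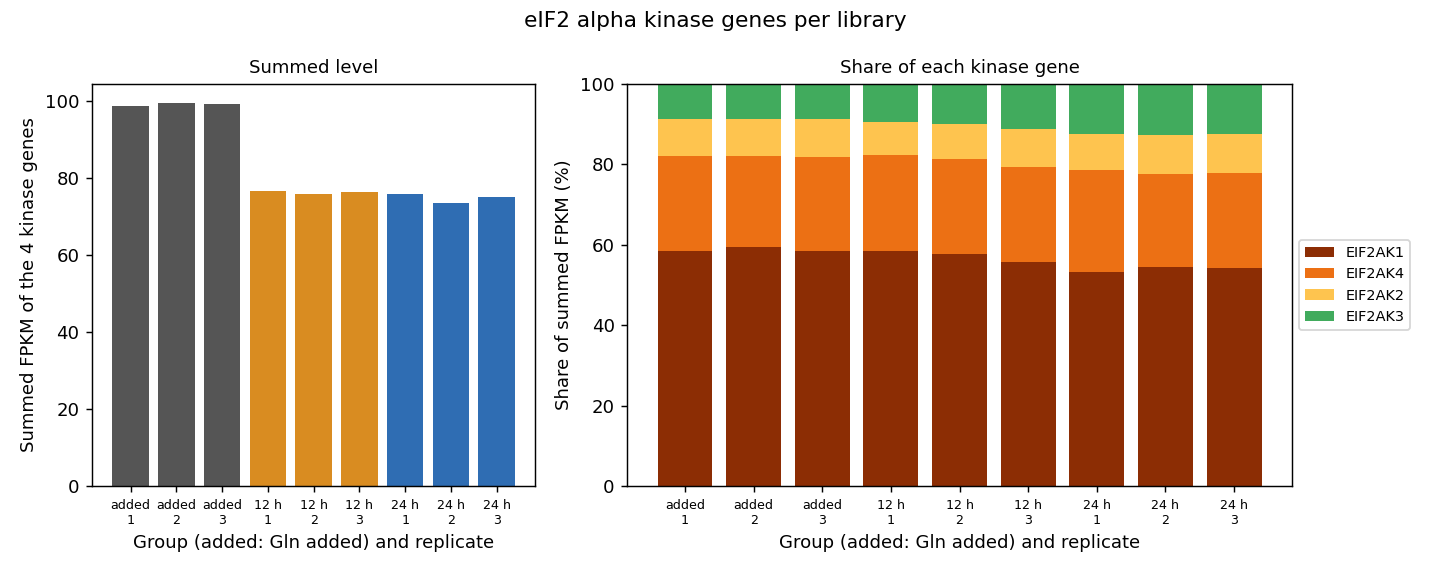
Summed FPKM of the 4 kinase genes per library (left, bars from 0) and the share of each kinase gene in that sum in percent (right, stacked bars), with the libraries ordered by group and replicate number. The sum is 98.9 to 99.6 FPKM in the Gln-added libraries and 73.7 to 76.8 FPKM in the deprived ones, and the EIF2AK3 share is 8.69% to 8.88% with Gln added and 12.5% to 12.6% after 24 h.

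Of 9 listed genes that regulate the kinases, 2 rose and 5 fell after 12 h, and 3 rose and 4 fell after 24 h. That was 7 of 9 at each time, beside the 60.2% and 64.7% of all genes tested that passed, with a median log2 fold change of -0.23 and -0.02 beside -0.02 and 0.01 over all genes tested. HSPA5, the chaperone BiP that holds EIF2AK3 inactive, was at 371 ± 5.41 FPKM with Gln added, 154 ± 3.33 after 12 h and 198 ± 7.48 after 24 h (SD, n = 3), a log2 fold change of -1.27 and -0.91. OMA1, the mitochondrial protease that cleaves DELE1, fell by 0.57 after 12 h and by 0.74 after 24 h on the log2 scale. DELE1, which activates EIF2AK1 under mitochondrial stress, rose by 0.26 and 0.24 (adjusted p = 0.00232 and 0.00334), and NCK1, an adaptor protein that binds EIF2AK3, rose by 0.36 after 24 h (adjusted p = 0.00676). From 12 h to 24 h, 2 regulators passed the test, HSPA5 with 0.36 and DNAJC3, a cochaperone that inhibits EIF2AK3 and EIF2AK2, with 0.35 (adjusted p = 0.000383). Against Gln added, DNAJC3 was at -0.37 after 12 h (adjusted p = 3.79e-05) and at -0.02 after 24 h (adjusted p = 0.727). DNAJC3 was named after its values were seen, as was GCN1, the partner through which EIF2AK4 is activated, which had values of -0.05 and 0.04 after 12 h and 24 h (adjusted p = 0.326 and 0.408).

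IMPACT (GRCh38 chr18:24426634-24453531, plus strand) encodes a protein that competes with EIF2AK4 for GCN1 and so restrains that kinase. It had the lowest level of the 10 genes, with 2.92, 2.60 and 2.65 FPKM with Gln added, 2.09, 2.25 and 2.40 FPKM after 12 h and 2.37, 2.25 and 2.32 FPKM after 24 h, from 256 to 431 fragments per library. The deprived libraries lay below the Gln-added ones, by as little as 2.40 against 2.60 FPKM. On the log2 scale the change was -0.27 after 12 h (SE 0.077, adjusted p = 0.0116) and -0.22 after 24 h (adjusted p = 0.0253). Without Gln-added replicate 1 neither call held, with -0.22 (adjusted p = 0.0539) and -0.17 (adjusted p = 0.105), and the 24 h call was lost in 5 of 19 alternatives. The ratio of EIF2AK4 to IMPACT within a library was 8.44 ± 0.436 with Gln added, 8.06 ± 0.627 after 12 h and 7.77 ± 0.278 after 24 h (SD, n = 3), with overlapping libraries in all comparisons and exact permutation p of 0.6 and 0.2 against Gln added.

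EIF2S1 (GRCh38 chr14:67360328-67386516, plus strand) encodes eIF2 alpha itself, the subunit that the kinases phosphorylate. Its level was 24.8, 23.6 and 25.0 FPKM with Gln added, 25.6, 24.5 and 28.0 FPKM after 12 h and 27.1, 24.9 and 25.9 FPKM after 24 h. The 3 groups overlapped. The log2 fold change was 0.09 at both times, with 95% intervals from -0.03 to 0.21 and adjusted p of 0.179 and 0.185.

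The other subunits of eIF2 did pass the test. EIF2S2, the beta subunit, was at 82.1 ± 2.13 FPKM with Gln added, 148 ± 4.47 after 12 h and 142 ± 3.62 after 24 h (SD, n = 3), with log2 fold changes of 0.85 (adjusted p = 1.93e-08) and 0.79 (adjusted p = 2.07e-08). Its level is uncertain, since 7 named pseudogenes could share its reads. EIF2S3, the gamma subunit, rose by 0.37 after 12 h and 0.35 after 24 h and has a named copy, EIF2S3B. The ratio of EIF2S1 to EIF2S2 was accordingly 0.298 with Gln added, 0.176 after 12 h and 0.183 after 24 h, without overlap against Gln added (exact permutation p = 0.1, adjusted p = 0.188 over 15 ratio tests). Of the 9 listed genes for other eIF2 and eIF2B subunits and their assembly, 3 rose and 4 fell after 12 h, and 4 rose and 3 fell after 24 h, beside the 60.2% and 64.7% of all genes tested that passed, with a median of -0.02 and 0.02. CDC123, the chaperone that assembles eIF2, fell from 119.8 ± 0.522 FPKM to 97.9 ± 1.83 after 12 h and 86.8 ± 2.67 after 24 h (SD, n = 3) and was the only gene of this list that passed from 12 h to 24 h. EIF2B1, a subunit of the exchange factor, fell by 0.34 and 0.33 on the log2 scale, while EIF2B2, another of its subunits, rose by 0.24 and 0.40.

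Both phosphatase subunit genes rose, and PPP1R15A had the larger fold change. PPP1R15A encodes GADD34, the stress-induced subunit, and PPP1R15B encodes CReP, the constitutive one. Because both recruit protein phosphatase 1 to eIF2 alpha and differ in regulation, stretches of sequence before their RefSeq start sites are shown (RefSeq, GRCh38.p14, 5′ to 3′ on the strand of the gene), with the motif matches in capitals. For PPP1R15A the 30 bases around the match are at chr19:48872352-48872381 on the plus strand, 69 to 40 bases before the start, and for PPP1R15B the 180 bases are at chr1:204411888-204412067 on the minus strand.
PPP1R15A: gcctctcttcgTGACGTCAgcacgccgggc
PPP1R15B: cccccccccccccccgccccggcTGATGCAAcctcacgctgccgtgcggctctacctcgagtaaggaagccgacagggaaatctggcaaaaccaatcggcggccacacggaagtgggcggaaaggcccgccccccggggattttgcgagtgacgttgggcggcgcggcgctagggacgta
The letters searched on both strands were TGATGNAA, the core of the element bound by ATF4 with CEBP partners, and TGACGTCA, the cyclic AMP response element. In the RefSeq windows from 250 bases before to 50 bases after a start site, the first was in 3.62% and the second in 1.85% of 35116 promoters. Promoters of 7 members were in that table. TGATGNAA was found in that of PPP1R15B, as TGATGCAA 227 to 220 bases before the start, and TGACGTCA in that of PPP1R15A, 58 to 51 bases before it. GENCODE v44 also has a start of PPP1R15A further upstream, at 48872212, so that this match lies downstream of that start. Whether an annotated exon covers the match was not tested. For PPP1R15B the printed stretch runs from 250 to 71 bases before the RefSeq start. The most upstream exon base of PPP1R15B in GENCODE v44, 204411887, directly follows that stretch, so its match lies upstream of both starts. A match of letters is a description and no measured binding site.

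PPP1R15A (GRCh38 chr19:48872212-48876059, plus strand) was at 6.90, 6.53 and 6.35 FPKM with Gln added, at 28.3, 29.4 and 27.1 FPKM after 12 h and at 29.3, 30.1 and 29.6 FPKM after 24 h. Every deprived library stood far above the Gln-added libraries, and the 12 h and 24 h libraries overlapped. The means were 4.28 times as high after 12 h and 4.50 times as high after 24 h, with log2 fold changes of 2.08 (SE 0.045, adjusted p = 1.56e-10) and 2.15 (adjusted p = 1.19e-10). These were the largest changes among the 10 genes and ranked 22 and 35 from the top among all 11880 genes tested. From 531 to 579 fragments stood behind each Gln-added value and from 1969 to 2501 behind each deprived one. From 12 h to 24 h the difference was 0.07 (adjusted p = 0.292).

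PPP1R15B (GRCh38 chr1:204396492-204411887, minus strand) was at 7.17, 6.97 and 7.39 FPKM with Gln added, at 10.7, 10.0 and 11.9 FPKM after 12 h and at 10.4, 11.7 and 11.7 FPKM after 24 h. All deprived libraries stood above the Gln-added ones. Its fold change was 0.59 on the log2 scale after 12 h (SE 0.068, adjusted p = 3.07e-05) and 0.64 after 24 h (adjusted p = 1.29e-05), with 0.05 between the times (adjusted p = 0.66). Exons of a gene on the opposite strand cover 5.6% of its exonic bases.

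With Gln added, PPP1R15B was the more abundant of the pair, and under deprivation PPP1R15A was. The ratio of PPP1R15A to PPP1R15B was 0.963, 0.937 and 0.86 in the Gln-added libraries, 2.64, 2.92 and 2.29 after 12 h and 2.83, 2.58 and 2.54 after 24 h. From the means of the log2 ratio, it was 2.83 times as high after 12 h and 2.88 times after 24 h without overlap of the libraries, and the two-sided exact permutation test gave its smallest possible p = 0.1 for each (adjusted p = 0.188). Transcripts of the catalytic subunits of protein phosphatase 1, to which both bind, did not pass limma's test in any comparison in the fit of all groups. The lowest unadjusted p by that test was 0.0651 (PPP1CC between the times), and voom gave 0 calls. In other alternatives 1 of these genes passed, in 2 of 19 after 24 h against Gln added and in 1 of 19 between the times. PPP1CA, PPP1CB and PPP1CC had log2 values of 0.03, -0.11 and 0.04 after 12 h and of 0.07, 0.05 and -0.10 after 24 h.

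**Figure D4:**
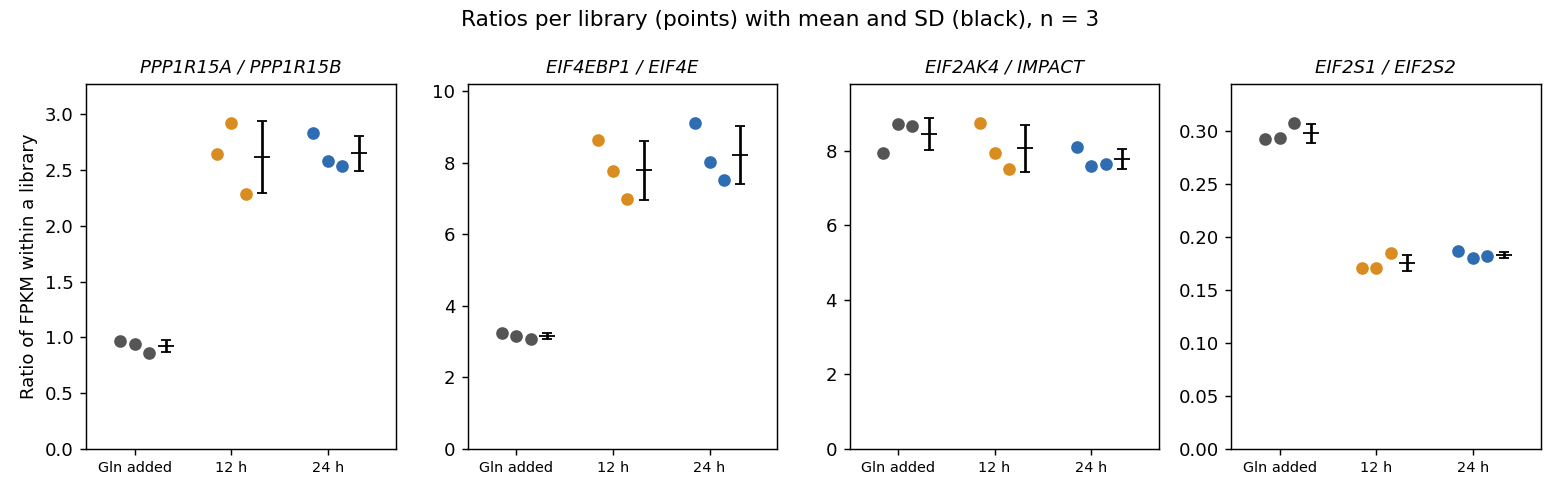
Ratio of FPKM between pairs of genes within a library (vertical axes from 0), by group, with the mean and SD in black (n = 3). PPP1R15A over PPP1R15B moves from below 1 in the Gln-added libraries to 2.29 or more, EIF4EBP1 over EIF4E from at most 3.24 to at least 6.98, and EIF2S1 over EIF2S2 from at least 0.293 to at most 0.187, while EIF2AK4 over IMPACT overlaps between groups.

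The genes that act downstream of ATF4 rose as well, and 1 of them differed between the times. NUPR1 (GRCh38 chr16:28532708-28539008, minus strand) encodes a small nuclear stress protein that ATF4 induces. Its level was 6.60, 6.54 and 6.27 FPKM with Gln added, 17.5, 16.8 and 16.9 FPKM after 12 h and 13.4, 11.6 and 12.0 FPKM after 24 h. The 3 groups did not overlap, with 24 h between the others. The log2 fold change was 1.38 after 12 h (SE 0.057, adjusted p = 1.52e-08) and 0.92 after 24 h (adjusted p = 1.90e-07), and the fall from 12 h to 24 h was -0.47 (adjusted p = 0.000314). That fall lay between -0.53 and -0.42 in all 19 alternatives and passed in each. An unnamed gene on its strand shares 16.5% of the exonic bases of NUPR1, so a part of its fragments could belong to that gene.

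EIF4EBP1 (GRCh38 chr8:38030534-38060365, plus strand) encodes 4E-BP1, which binds the cap-binding factor eIF4E and blocks initiation when it is not phosphorylated by mTORC1. It was at 60.8, 61.6 and 59.3 FPKM with Gln added, at 145.7, 136.4 and 126.6 FPKM after 12 h and at 144.6, 136.2 and 129.7 FPKM after 24 h. The deprived libraries all stood above 126 FPKM and those of 12 h and 24 h overlapped. Log2 fold changes were 1.17 at both times (SE 0.054, adjusted p = 3.49e-08 after 12 h and 2.11e-08 after 24 h), with 0.01 between them (adjusted p = 0.935). Its level is uncertain too, since the named pseudogene EIF4EBP1P1 could share its reads.

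EIF4E, the target of 4E-BP1, went the other way, from 19.2 ± 0.439 FPKM to 17.5 ± 0.627 after 12 h and 16.7 ± 0.731 after 24 h (SD, n = 3), with log2 fold changes of -0.13 (adjusted p = 0.0265) and -0.20 (adjusted p = 0.00245). Its 5 named pseudogenes leave its level uncertain. The ratio of EIF4EBP1 to EIF4E was 3.24, 3.14 and 3.07 with Gln added, 8.62, 7.76 and 6.98 after 12 h and 9.12, 8.02 and 7.53 after 24 h. It was 2.46 and 2.60 times as high after 12 h and 24 h without overlap (exact permutation p = 0.1, adjusted p = 0.188). Of the other 8 genes tested from the 4E-BP family and the eIF4F cap-binding complex, EIF4E included, 3 rose and 2 fell after 12 h, and 2 rose and 2 fell after 24 h, beside 60.2% and 64.7% of all genes tested, with a median of -0.05 and -0.04. EIF4G3, a scaffold of that complex, rose by 0.70 and 0.80 on the log2 scale, and EIF4B, a helicase cofactor, by 0.21 and 0.08. EIF4E2, a relative of EIF4E, fell by 0.32 and 0.40 on the log2 scale. EIF4E3 and EIF4EBP3 were below the filter on low values, and EIF4A1 was not analysed here.

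Other ATF4 targets and factors of this branch gave the widest shift of the lists. Of 31 listed genes 29 were tested, and 28 rose after 12 h and after 24 h, where 29.1% and 33.0% of all genes did. CHAC1 and FGF21 were below the filter on low values, a mean of 0.5 FPKM over the 9 libraries. With Gln added, ASNS (0.128 FPKM) and ALDH1L2 (0.48 FPKM) were under it too. Both passed only through the deprived groups, which favours a rise. The list was written from textbook knowledge with earlier results of these data known, so its direction is no independent evidence. Its median log2 fold change was 1.35 after 12 h and 1.32 after 24 h, between the values of PPP1R15B and PPP1R15A. CTH, an enzyme of cysteine synthesis, was at 1.57 ± 0.129 FPKM with Gln added, 6.75 ± 0.111 after 12 h and 7.28 ± 0.603 after 24 h (SD, n = 3). ASNS, asparagine synthetase, had the largest rise of the list, by 3.06 and 2.74 on the log2 scale, with only 14 to 15 fragments in each Gln-added library. Its Gln-added mean of 0.128 FPKM was close to the pseudocount of 0.1, which shrinks these values, and its mean FPKM was 14.1 times as high after 12 h and 11.1 times after 24 h. ATF5, a stress transcription factor, was the exception, with 0.02 after 12 h (adjusted p = 0.828) and a fall by 0.21 after 24 h (adjusted p = 0.00872). From 12 h to 24 h, 4 genes of the list rose (PHGDH, SHMT2, ALDH1L2 and WARS1) and 3 fell (ATF5, SLC7A5 and MTHFD2), named here after their values were seen. These 7 of 29 genes stood beside 20.1% of all genes tested, and their number ran from 4 to 10 over the alternatives.

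**Figure D5:**
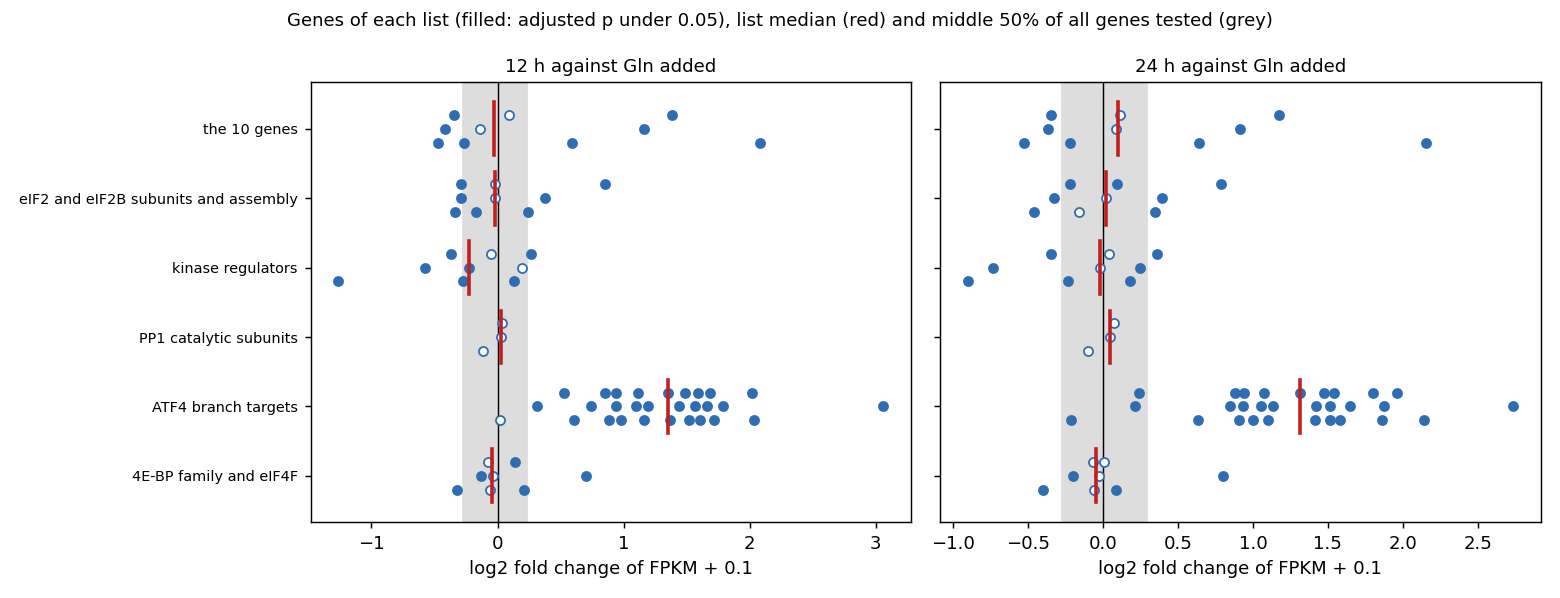
Log2 fold change of FPKM + 0.1 (horizontal axes) after 12 h and 24 h for each tested gene of the 10 members and of 5 pathway lists, filled where adjusted p was under 0.05, with the list median in red and the middle 50% of all genes tested in grey. The ATF4 branch list has a median of 1.35 and 1.32, while the medians of the other 4 lists lie between -0.23 and 0.05.

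Between 12 h and 24 h, 3 of the 10 genes passed the test, against 20.1% of all genes tested (9.57% higher and 10.5% lower). EIF2AK3 rose while NUPR1 and EIF2AK1 fell, and these were also the only members whose 12 h and 24 h libraries did not overlap, as was the case for 34.4% of all genes tested. None of the 10 changed by 0.5 or more on the log2 scale between the times in limma or with voom, against 3.18% of all genes, and 1 did so with median-ratio scaling. The median absolute difference of the 10 genes was 0.06, beside 0.11 over all genes tested.

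Ordered by FPKM with Gln added, EIF4EBP1 led, followed by EIF2AK1, EIF2S1, EIF2AK4, EIF2AK2, EIF2AK3, PPP1R15B, PPP1R15A, NUPR1 and IMPACT. Only PPP1R15A and NUPR1 overlapped with their neighbour in that order. After 12 h PPP1R15A had moved to the third place, overlapping with EIF2S1, and NUPR1 had moved above PPP1R15B, EIF2AK3 and EIF2AK2. After 24 h PPP1R15A kept the third place without overlap, and NUPR1 overlapped with PPP1R15B. Places depend on the length used, and the length of the canonical transcript was an alternative chosen after seeing the data. With it EIF2AK1 (61.2) stood above EIF4EBP1 (60.6) with Gln added, and PPP1R15B (14.8) above NUPR1 (12.5) after 24 h. EIF2AK2, EIF2AK3 and PPP1R15B then stood close together with Gln added, at 9.527 ± 0.309, 9.415 ± 0.148 and 9.414 ± 0.275 (SD, n = 3). Their order with Gln added thus also depends on the length used.

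Profiles over the 9 libraries were compared with those of 7296 genes of at least 5 FPKM by the Euclidean distance of log2 values, each gene centred on its Gln-added mean. Nearest to PPP1R15A were IER3, an early stress-response gene, at a distance of 0.11, then CTH at 0.22 and GTPBP2, a GTPase of ribosome rescue, at 0.223. IER3 was at 35.9 ± 1.97 FPKM with Gln added, 148.6 ± 6.68 after 12 h and 162.8 ± 1.41 after 24 h (SD, n = 3). Nearest to EIF2AK1 were SLC38A5, a transporter of Gln and other neutral amino acids, at 0.066, and ESD, an esterase, at 0.083. SLC38A5 was at 16.0 ± 0.278 FPKM with Gln added, 12.0 ± 0.380 after 12 h and 11.2 ± 0.0879 after 24 h. The distances describe these libraries, which share group and depth, and carry no test.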

How the data were processed

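RNA-seq of HepG2 cells was analysed in 9 libraries, 3 per group, grouped by the sample labels. The authors deposited FPKM per gene, from reads aligned to GRCh38 with STAR per their methods. The submitters' processing notes name HTSeq and R 3.2.0, and the counting annotation is not given in the sources used here. Labels name a VAHTS kit and the methods a strand-specific NEBNext kit, so strand is open. The smallest FPKM steps of each library gave whole fragments, with 100% of values whole within 0.02 fragments.

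FPKM were tested as log2(FPKM + 0.1) with limma 3.58.1 in R 4.3.3 (lmFit, eBayes with trend), keeping genes whose mean reached 0.5 FPKM. All 3 groups entered 1 fit, and p-values were adjusted by Benjamini-Hochberg across every gene tested. Ratios within a library were compared by two-sided exact permutation tests in Python 3.11.15 with scipy 1.17.1. The ratios of EIF2AK4 to IMPACT and of EIF2S1 to EIF2S2 or EIF2S3, and the kinase sum and shares, were added after values were seen. Scripts were tested on simulated data.

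The members and the 5 gene lists were chosen with earlier results of these data known. Named were all members, the 2 largest rises and falls past the threshold at 24 h in each list, EIF4E, and the 3 nearest profiles to the members with the largest rise and fall, of which 1 gene is not reported here. Alternatives were pseudocounts of 1 and 0.01, no filter or 1 FPKM, 2 scalings, only the groups compared, a replicate block, no trend, voom on the recovered fragments, and each library left out. Positions are from GENCODE v44 and promoter windows from RefSeq. Knockdown samples and other assays of the study were not used here.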

Additional observations from a re-analysis of the deposited data

Results flagged for a closer look

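Levels differed between 12 h and 24 h of Gln deprivation for 3 of the 10 genes, by limma's test of that difference. Of all genes tested 20.1% passed, a share near that of the 10 genes. Without Gln-added libraries matched to each time, longer deprivation and longer time in culture cannot be told apart. For NUPR1 the 24 h minus 12 h difference was -0.47 on the log2 scale (adjusted p = 0.000314). For EIF2AK3 it was 0.26 (adjusted p = 0.0116), with libraries at 7.32 to 8.63 FPKM at 12 h and 9.31 to 9.57 FPKM at 24 h. For EIF2AK1 it was -0.12 (adjusted p = 0.0282), a call that did not hold in 7 of 19 alternatives.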

How the results depend on the processing

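In all, 96 results were recomputed under 1209 alternative values. Of 570 single fold changes, 541 kept their direction and side of the threshold, 13 lost the call, 4 gained it and 12 changed sign, all 12 between 12 h and 24 h and none of them called. With each library rescaled to the same total, EIF2AK4 gave 0.009 and EIF2S1 0.012, and with median-ratio scaling EIF4EBP1 gave -0.028. Over the libraries left out in turn, the 24 h minus 12 h difference ranged from -0.051 to 0.031 for EIF2AK4, from -0.045 to 0.052 for EIF2S1, from -0.006 to 0.113 for PPP1R15B, from -0.044 to 0.058 for EIF4EBP1 and from -0.005 to 0.089 for IMPACT. Between 12 h and 24 h, rescaling to the same total called 2 eIF2 and eIF2B list genes in place of 1, median-ratio scaling called 1 member at the size of 0.5 in place of 0, and a pseudocount of 1 left 187 of all genes at that size in place of 378. At 24 h against Gln added, rescaling to the same total called 1 catalytic subunit of protein phosphatase 1 in place of 0. The cause was not tested. With single libraries left out, the counts between 12 h and 24 h ranged from 1 to 3 for the eIF2 and eIF2B list (3 without replicate 2 of 24 h), from 4 to 8 for the ATF4 branch (4 without replicates 1 or 2 of 12 h or replicate 3 of 24 h), from 1 to 2 for the 4E-BP list (1 without replicate 1 of 12 h), and from 0 to 1 for the catalytic subunits and for members at the size of 0.5 (1 without replicate 1 of 24 h). At 24 h against Gln added the catalytic subunits ranged from 0 to 1. Of the calls from 12 h to 24 h over all genes, 47.7% were higher, 33.4% with median-ratio scaling and 54.3% with equal totals. Same-numbered libraries of different groups correlated by -0.136 to 0.283 in their deviations from the group means, and not every library correlated best with its own number. Deviations from means of 3 libraries cannot tell whether same-numbered libraries shared a culture or a batch. With the replicate block 7341, 7802 and 2586 genes passed at 12 h, at 24 h and between the times, in place of 7147, 7686 and 2386, and the eIF2 and eIF2B list had 2 calls between the times in place of 1. Depth limits IMPACT most among the members, with 256 fragments in its lowest library.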
